A study of Rattus norvegicus with 12 samples.

Results

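The spliceosome is the machine that cuts introns out of precursor mRNA, and its proteins were followed here as a group of genes in the tissue of a rat bone defect. The group holds every gene of the deposited table whose annotated pathways include the spliceosome, leaving out the genes named Hspa, which are general chaperones: 125 of 22601 genes, of which 121 of the 12633 genes tested reached 1 FPKM in at least 3 libraries. FPKM, a fragment count scaled by transcript length and library depth, is a level per length and can be set side by side between genes. RNA was sequenced in 12 libraries, 3 in each of 4 groups, from Sprague Dawley rats aged 8 weeks at surgery, in which a 3 mm drill had opened the lateral femoral condyle and new tissue was taken 2 weeks later. In the hydrogel group the hole held a 3D printed scaffold of gelatin-methacryloyl, a natural polymer. In the PCL group it held printed polycaprolactone, a synthetic polyester, in the β-TCP group printed β-tricalcium phosphate, a ceramic, and in the control group nothing. No group had an unoperated bone, and each library mixes all cells of the sample. The labels do not say that the libraries came from separate animals, and the p-values therefore speak of the spread among these libraries alone. In such bulk samples fewer cells of a type and less RNA per cell cannot be told apart.

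Introns are removed by small nuclear ribonucleoproteins (snRNPs), particles of a small RNA and its proteins, that bind the precursor in turn. The U1 snRNP marks the start of the intron and the U2 snRNP its branch point, then the U4/U6 and U5 particles join as a tri-snRNP, and the Prp19 complex and RNA helicases of the DEAH type rearrange the machine into its active form and release the product. SR proteins and hnRNPs bind the exons and introns and set which sites are used, and the exon junction and TREX proteins stay on the spliced mRNA for its export. Genes of the machine are active in every nucleated cell, in bone as in the marrow beside it.

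The libraries differed in ways that bear on all results. Control replicate 3 stood apart from its group, with a chi-square per gene, of fragments recovered from the FPKM, of 219 and 318 against its 2 partners where those 2 gave 40.5 against each other. β-TCP replicates 2 and 3 lay much closer to each other than any other pair of 1 group, with a chi-square per gene of 2.18 against 31.9 to 318 for the other 11 pairs, which is above the value of 1 that counting error alone gives on average. They were kept as separate libraries, and counts with the pair averaged to 1 are given in each comparison with β-TCP. Depth recovered from the values was alike, from 15035857 to 17357782 fragments per library, and hemoglobin genes took from 1.03% to 25.8% of all FPKM.

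Promoter stretches are shown for genes on which the results below turn: Bcas2, Snrpa and Ppil1, which passed 2-fold between groups, Srsf3 and Rp9, each with the lowest p among proteins of its role, and Sf3b5, which had the narrowest range of all. Each is the 250 bases before the start of the gene as RefSeq annotates it on the assembly GRCr8, written 5′ to 3′ on the strand of the gene, with matches to any of the motifs named below in capitals.
Bcas2, chr2:193380750-193380999, plus strand: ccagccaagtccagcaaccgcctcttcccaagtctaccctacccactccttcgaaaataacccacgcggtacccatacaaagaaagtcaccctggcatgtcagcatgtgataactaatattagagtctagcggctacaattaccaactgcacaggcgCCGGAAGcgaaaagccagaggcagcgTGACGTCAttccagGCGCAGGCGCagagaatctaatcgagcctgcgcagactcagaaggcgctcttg
Snrpa, chr1:91618043-91618292, minus strand: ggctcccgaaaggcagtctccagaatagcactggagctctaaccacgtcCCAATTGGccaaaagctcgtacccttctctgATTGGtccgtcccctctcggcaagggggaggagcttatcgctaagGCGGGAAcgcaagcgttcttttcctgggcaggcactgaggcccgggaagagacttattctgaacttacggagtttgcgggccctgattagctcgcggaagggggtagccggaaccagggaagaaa
Ppil1, chr20:7318782-7319031, minus strand: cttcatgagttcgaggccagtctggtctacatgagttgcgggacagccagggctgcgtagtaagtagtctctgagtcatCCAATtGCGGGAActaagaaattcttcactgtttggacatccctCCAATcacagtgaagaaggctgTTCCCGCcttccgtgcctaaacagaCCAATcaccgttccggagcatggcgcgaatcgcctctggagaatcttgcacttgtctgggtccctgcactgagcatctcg
Srsf3, chr20:7093335-7093584, plus strand: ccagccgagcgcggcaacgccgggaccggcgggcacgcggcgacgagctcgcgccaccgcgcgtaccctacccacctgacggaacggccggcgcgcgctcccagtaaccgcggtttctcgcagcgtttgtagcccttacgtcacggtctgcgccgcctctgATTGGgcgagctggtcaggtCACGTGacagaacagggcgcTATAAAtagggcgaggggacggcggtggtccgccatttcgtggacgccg
Rp9, chr8:29281151-29281400, minus strand: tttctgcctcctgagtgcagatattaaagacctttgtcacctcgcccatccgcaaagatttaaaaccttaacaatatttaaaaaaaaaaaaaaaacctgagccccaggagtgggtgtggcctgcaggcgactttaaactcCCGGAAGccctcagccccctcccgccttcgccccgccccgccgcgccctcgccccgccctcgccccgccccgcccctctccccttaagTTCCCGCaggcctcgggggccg
Sf3b5, chr1:9176939-9177188, plus strand: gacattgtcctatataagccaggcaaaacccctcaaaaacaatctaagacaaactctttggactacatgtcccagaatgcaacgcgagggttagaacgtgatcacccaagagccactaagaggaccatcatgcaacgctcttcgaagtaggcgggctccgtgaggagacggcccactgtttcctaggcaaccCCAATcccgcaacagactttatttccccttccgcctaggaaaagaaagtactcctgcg
Of the 121 genes tested, 110 matched a window of 300 bases in that table, which runs from 250 bases before the start to 50 after it. The letters CCGGAAG, a form of the ETS site, stood on either strand in 37 of the 110 windows (33.6%), against 17.7% of the 10165 windows of all genes tested. The letters GCGCA and GCGC with any base between them, a form of the NRF1 site, stood in 24 (21.8%, against 9.80%) and GCGGGAA, a form of the E2F site, also in 24 (21.8%, against 8.21%). CCAAT was present in 52 windows (47.3%, against 38.0%), the cyclic AMP element TGACGTCA in 6 (5.45%, against 3.09%), the E-box CACGTG in 7 (6.36%, against 9.29%) and TATAAA in 7 (6.36%, against 7.12%). The GC box GGGCGG, not in capitals above, stood in 53 (48.2%, against 61.5%). In the stretches shown, Snrpa, Ppil1, Srsf3 and Sf3b5 held CCAAT, and Snrpa, Ppil1 and Rp9 held GCGGGAA, on either strand. Bcas2 and Rp9 held the ETS letters, Bcas2 also the NRF1 and cyclic AMP letters, and Srsf3 the E-box and TATAAA. The matches are a description of letters in a window, and matches may overlap, as CCAAT and its reverse ATTGG do in Snrpa.

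Over the genes tested, the mean level ran from 1.14 to 311 FPKM with a median of 35.6 FPKM. Of all 125 members, 15 averaged above 100 FPKM, 99 between 10 and 100 and 11 below 10. The most abundant was the RNA helicase Ddx5 at 311 FPKM, then the SR protein Srsf5 at 260.2 FPKM, Hnrnpa1 at 234 FPKM and the export helicase Ddx39b at 201 FPKM. By role, the median of the mean levels was highest in the hnRNP (102 FPKM) and Sm proteins (102 FPKM). It was lowest in the step factors and DEAH helicases (13.1 FPKM). Sm proteins form the ring that snRNPs other than U6 carry. Of the 4 members not tested, Ncbp2, a cap-binding protein, had 0.51 to 1.0 FPKM, Wbp11 had 0.07 to 1.9 FPKM, and Rbmxl2 and RGD1563496 were listed at 0 in every library. Near-identical copies can share reads, which leaves the split between Wbp11 and Wbp11l1, Rbmx and Rbmxrtl, Rbm25 and Rbm25l1, and Magoh and Magohb uncertain.

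Most members were high or low in the same libraries. Control replicate 3 had the lowest level of all 12 libraries for 106 of the 121 genes tested, where it was lowest for 47.6% of all genes tested, and hydrogel replicate 3 had the highest for 104, where it was highest for 30.4% of all genes. The median difference of the genes from their own mean, on the log2(FPKM + 1) scale, was 0.14, 0.13 and 0.44 in the hydrogel libraries, 0.07, 0.02 and 0.17 in the PCL libraries, -0.09, -0.25 and -0.25 in the β-TCP libraries and -0.04, 0.23 and -0.53 in the control libraries. All genes tested stayed between -0.12 and 0.10 by the same measure except in control replicate 3, at -0.28. By this measure the hydrogel and β-TCP libraries did not overlap, and the control libraries ran from below every β-TCP library to above hydrogel replicates 1 and 2. The summed level of all 125 genes was 7386 ± 940 FPKM in hydrogel, 6519 ± 330 in PCL, 5376 ± 409 in β-TCP and 5837 ± 1491 in control (SD, n = 3 each).

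**Figure D1:**
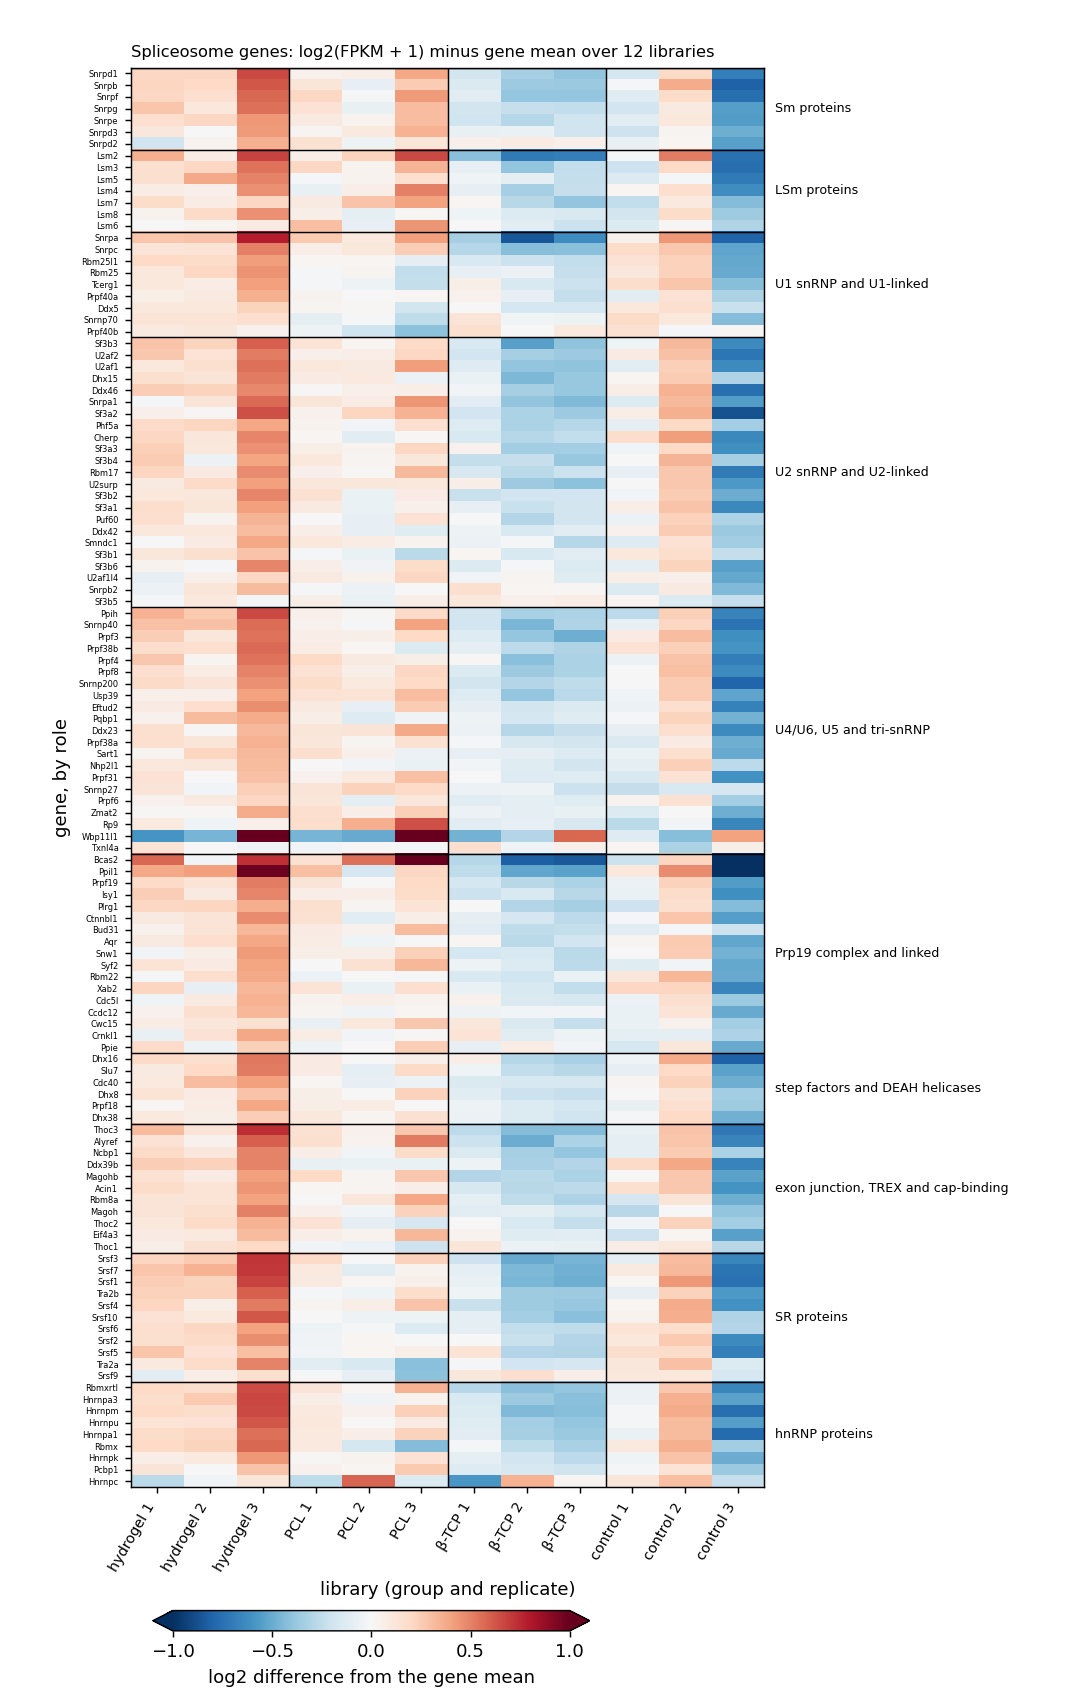
Difference of each of the 121 spliceosome genes tested from its own mean over 12 libraries, on the log2(FPKM + 1) scale, with genes in rows by role and libraries in columns by group. Hydrogel replicate 3 is red and control replicate 3 blue for most genes, and β-TCP replicates 2 and 3 are below 0 in the median of every role.

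**Figure D2:**
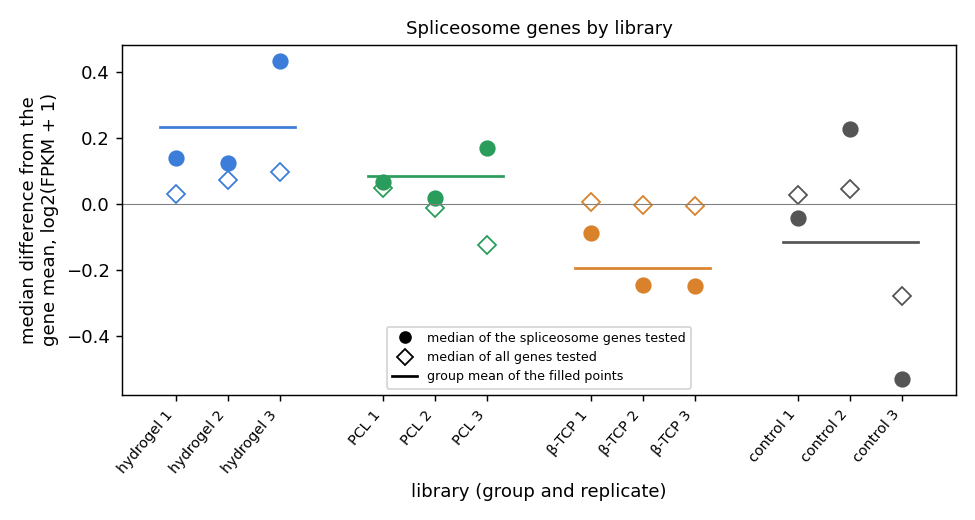
Median difference from the gene mean, in log2(FPKM + 1), per library, for the spliceosome genes (filled) and all genes tested (open), with bars at the group mean of the filled points. The hydrogel points lie from 0.13 to 0.44, the β-TCP points from -0.25 to -0.09 and the control points from -0.53 to 0.23.

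Markers of several cell types differed across the same libraries. The summed level of 8 mitotic markers was 441, 346 and 700 FPKM in hydrogel, 361, 343 and 561 in PCL, 219, 115 and 117 in β-TCP and 252, 490 and 67.6 in control. That of 8 erythroid markers was lowest in control replicate 3 (1131 FPKM) and ran from 4408 to 10476 in β-TCP, against 13223 to 29137 in hydrogel and 15020 to 42133 in PCL. Most of that sum was Hbb, with a mean of 5736 FPKM in β-TCP and 21410 in hydrogel. Of the 8 erythroid markers, 7 had a log2 fold change below 0 in β-TCP against hydrogel (55.1% of all genes did) and 1 above 0, at 0.73. Neutrophil markers gave 2122 to 4439 FPKM in hydrogel, 1707 to 5300 in PCL, 807 to 1152 in β-TCP and 39.4 to 3017 in control, and B cell markers 423 to 789, 110 to 379, 58.1 to 152 and 17.1 to 543 in the same order of groups. S100a8 and S100a9 had the highest means of the neutrophil markers in every group. Of the 7 neutrophil markers tested, 5 had a log2 fold change below 0 in PCL against hydrogel and 2 above 0, with a median of -1.32 (61% of all genes were below 0). The summed cartilage markers reached 12965 FPKM in control replicate 3, against 2118 and 2244 in the other control libraries and 187 to 969 in the scaffold libraries. The summed macrophage and osteoclast markers were highest in β-TCP (13144 to 17707 FPKM, against 5826 to 10054 in the other libraries). Ctsk and Lyz2 had the highest means of that list in every group. Of its 8 markers, 7 had a log2 fold change above 0 in β-TCP against hydrogel (44.9% of all genes did). The other was Cd163, lower without overlap at -1.66 (34.5% of all genes were lower without overlap). Its mean was 6.92 FPKM in β-TCP, 12.99 in control, 15.96 in PCL and 23.93 in hydrogel. Osteoblast markers were present in every library (4671 to 17713 FPKM in sum). Of the markers, Ltf was at 0 in 3 libraries and Vpreb1 in 1, and skeletal muscle markers, at 14.4 to 402 FPKM in sum, had 4 members at 0 in 1 to 3 libraries. The part of these cell types in the levels of the spliceosome genes was not tested.

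**Figure D3:**
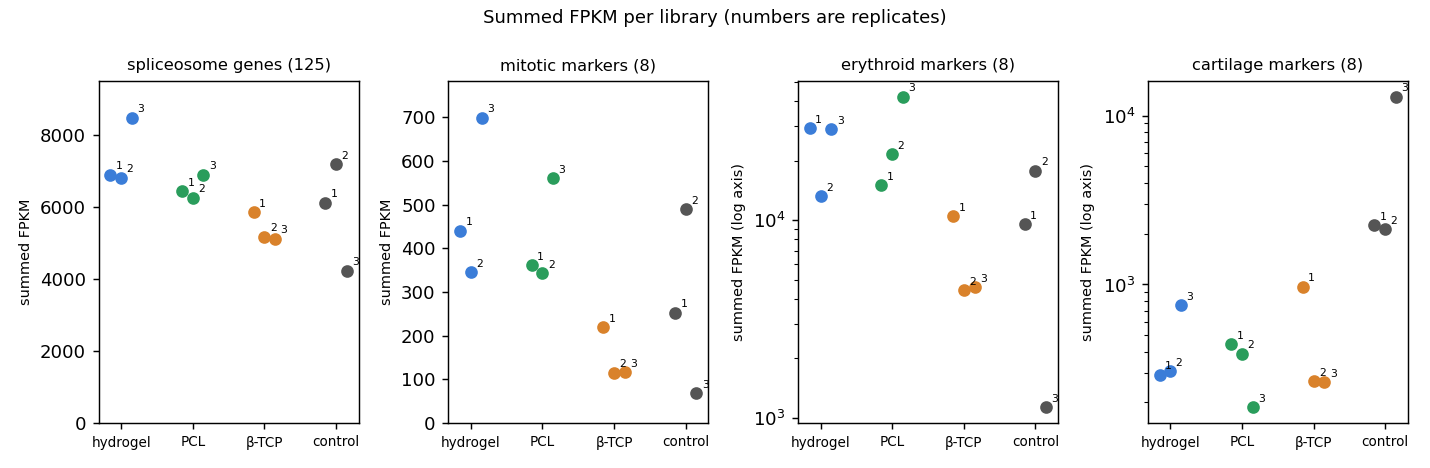
Summed FPKM per library for the 125 spliceosome genes and for 8 mitotic, 8 erythroid and 8 cartilage markers, with the replicate number beside each point and log axes for the last pair. Control replicate 3 is lowest in the mitotic and erythroid sums and highest in the cartilage sum.

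Hydrogel against control asks how the level of the machine differed with a natural polymer in the hole. No member passed an adjusted p under 0.05 by limma (0.00792% of all genes did). The smallest unadjusted p, 0.0038, was that of Lsm5, a subunit of the LSm ring that binds U6 RNA. Its adjusted p of 0.312 was shared by other members, Magoh and Syf2 among them. At an unadjusted p under 0.05, limma gave 29 of 121 members higher and 0 lower, against 8.62% and 6.37% of all genes, and limma-voom also gave 29 and 0 with 0 at an adjusted p. The log2 fold change was above 0 for 120 members, against 67.3% of all genes, with a median of 0.34 where all genes had 0.14. That median was 0.13 without control replicate 3, with 7 members higher at an unadjusted p (3.10% of all genes in that fit). The count was 99 without control replicate 2 (28.3% of all genes) and 4 without hydrogel replicate 3 (3.22%). Groups did not overlap for 17 members, all higher (against 9.15% higher and 5.98% lower of all genes), among them the Sm proteins Snrpd1, Snrpe and, chosen after its values were seen, Snrpg.
Lsm5 had 20.9, 24.5 and 26.7 FPKM in hydrogel, against 16.9, 18.4 and 10.998 FPKM in control. Every hydrogel library lay above every control library, and the log2 fold change was 0.63 ± 0.17 SE, adjusted p = 0.312. Magoh, a core protein of the exon junction complex, had 57.8, 59.2 and 75.2 FPKM in hydrogel, against 43.3, 52.8 and 40.05 FPKM in control, again without overlap (log2 fold change 0.49 ± 0.14 SE, adjusted p = 0.312). Syf2, which joins the active machine, had 68.8, 66.2 and 82.2 FPKM in hydrogel, against 57.4, 61.01 and 43.4 FPKM in control (log2 fold change 0.43 ± 0.15 SE, adjusted p = 0.312). The only member with a log2 fold change below 0 was Hnrnpc, chosen after its values were seen, at -0.12. By role the median log2 fold change ran from 0.26 in the U1 proteins to 0.50 in the Sm proteins.

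PCL against control asks the same of a synthetic polymer. No member passed an adjusted p under 0.05 by limma (0.277% of all genes), the smallest being that of Rp9, a tri-snRNP protein, at adjusted p = 0.1005. At an unadjusted p, 11 members were higher and 1 lower by limma and by limma-voom, against 11.1% and 7.34% of all genes, a share of the members below the first of these. The median log2 fold change was 0.19, against 0.04 over all genes, and 105 members lay above 0 (55.4% of all genes). The groups did not overlap for 9 higher members and 1 lower (10.3% and 7.84% of all genes). Without control replicate 3 the median was -0.0018, with 60 members above and 61 below 0, 2 higher and 8 lower at an unadjusted p (6.21% and 10.6% of all genes in that fit). The higher count was 50 without control replicate 2 (19.0% of all genes) and 2 without PCL replicate 3 (6.62%).
Rp9 had 13.6, 15.7 and 19.2 FPKM in PCL, against 9.77, 11.8 and 7.25 FPKM in control. The groups did not overlap, and the log2 fold change was 0.71 ± 0.16 SE, adjusted p = 0.1005. Bcas2, a core protein of the Prp19 complex, had 97.2, 128 and 215 FPKM in PCL, against 75.3, 102 and 34.1 FPKM in control. It was the only member past 2-fold with an unadjusted p under 0.05 (2.37% of all genes were so, higher), at log2 fold change 1.11 ± 0.40 SE, adjusted p = 0.215, although 1 control library lay above the lowest PCL library. Against the common direction, Prpf40b, a U1-linked protein chosen after its values were seen, had 2.97, 2.57 and 2.08 FPKM in PCL, against 3.57, 3.08 and 3.14 FPKM in control without overlap (log2 fold change -0.27 ± 0.12 SE, adjusted p = 0.256). U1-linked proteins had a median of -0.03, the lowest of the roles, and LSm proteins 0.36, the highest.

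β-TCP against control gave no member past either p. No member passed at an adjusted p by limma (4.78% of all genes did), and 0 passed at an unadjusted p by limma or limma-voom, against 14.7% higher and 3.25% lower of all genes. The median log2 fold change was -0.08 (0.03 over all genes), with 30 members above 0 (54.2% of all genes) and 91 below. The direction turned with the control libraries: the median was 0.09 without control replicate 2 and -0.30 without control replicate 3. Without control replicate 3, 9 members passed at an adjusted p, all lower, where 10.7% of all genes passed in either direction. In the fit of all 12 libraries, 4.22% of all genes passed higher and 0.562% lower. With β-TCP replicates 2 and 3 averaged, 0 members passed at either p. Sf3b5, a small subunit of the U2 particle chosen after its values were seen, and Snrpd2, a Sm protein, were the 2 members whose groups did not overlap (both higher, against 17.9% higher and 4.97% lower of all genes). Sf3b5 had 77.6, 74.7 and 75.7 FPKM in β-TCP, against 73.1, 65.5 and 61.3 FPKM in control (log2 fold change 0.19 ± 0.09 SE, adjusted p = 0.338), and Snrpd2 had 151, 153 and 150.2 FPKM in β-TCP, against 138, 147 and 99.1 FPKM in control (log2 fold change 0.26 ± 0.17 SE, adjusted p = 0.505).

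β-TCP against hydrogel had the most members without overlap of the 6 comparisons. No member passed an adjusted p under 0.05 by limma (6.13% of all genes did), with Snrpa nearest at adjusted p = 0.0530 and Phf5a, a U2 subunit, at 0.0537. At an unadjusted p, 70 of 121 were lower and 0 higher, against 18.2% and 16.1% of all genes, and limma-voom gave 67 and 0. The groups did not overlap for 105 members, all lower in β-TCP, against 34.5% lower and 23% higher of all genes. The median log2 fold change was -0.43 (-0.06 over all genes), with 4 members above 0 (44.9% of all genes). The count of calls depended on which libraries set the spread. Without control replicate 3, 85 members passed at an adjusted p, all lower, where 37.5% of all genes passed in either direction. Without control replicate 2, 28 members did (15.6% of all genes in either direction), and in a fit of only the 2 groups, 68 did (33.6%). In the fit of all 12 libraries, 5.17% of all genes passed higher and 0.966% lower. Without hydrogel replicate 3 the unadjusted count was 22 (6.77% of all genes lower in that fit), without β-TCP replicate 2 it was 31 (8.94%), without β-TCP replicate 3 it was 25 (8.80%), and with that pair averaged it was 29 (8.84%).
Snrpa, the U1 protein that binds the U1 RNA, had 21.3, 14.6 and 17.3 FPKM in β-TCP, against 32.99, 33.2 and 47.4 FPKM in hydrogel. All 3 β-TCP libraries lay below all 3 hydrogel libraries, at log2 fold change -1.05 ± 0.28 SE, adjusted p = 0.0530. Ppil1, a prolyl isomerase of the active machine, had 26.95, 22.2 and 22.1 FPKM in β-TCP, against 42.3, 43.2 and 64.7 FPKM in hydrogel (log2 fold change -1.02 ± 0.39 SE, adjusted p = 0.105), and Bcas2 had 71.6, 49.2 and 48.4 FPKM in β-TCP, against 131, 85.8 and 145 FPKM in hydrogel (log2 fold change -1.07 ± 0.40 SE, adjusted p = 0.103). These 3 were the members past 2-fold with an unadjusted p under 0.05 (5.02% of all genes, lower).
Among SR proteins, Srsf3, which also steers mRNA export, had 70.6, 57.5 and 58.99 FPKM in β-TCP, against 95.3, 98.5 and 135 FPKM in hydrogel (log2 fold change -0.79 ± 0.22 SE, adjusted p = 0.0607). The abundant Srsf2 was at -0.45 and Srsf5 at -0.39. The hnRNP protein Hnrnpa3 had 136, 117 and 113 FPKM in β-TCP, against 171, 182 and 240.3 FPKM in hydrogel (log2 fold change -0.68 ± 0.20 SE, adjusted p = 0.0688), with Hnrnpa1 at -0.58 and Hnrnpk at -0.39. By role the medians ran from -0.30 in the U1 proteins to -0.57 in the SR and -0.58 in the hnRNP proteins.
Proteins of the core particles varied widely, with Snrpa and, chosen after its values were seen, Lsm2 (-0.97) at one end and Snrpd2 (-0.0021) near the other. Snrpd1 had 51.3, 46.4 and 44.3 FPKM in β-TCP, against 67.6, 67.9 and 93.00 FPKM in hydrogel (log2 fold change -0.66 ± 0.21 SE, adjusted p = 0.0766) and Snrpe was at -0.50, with Lsm3 at -0.54, Lsm8 at -0.34 and U2af2, which reads the polypyrimidine tract, at -0.60. Phf5a had 51.6, 45.4 and 46.2 FPKM in β-TCP, against 64.8, 65.8 and 74.5 FPKM in hydrogel, without overlap. Prpf8, the large protein at the heart of the U5 particle, was at -0.52, Nhp2l1 at -0.29, the step factor Slu7 at -0.46, Dhx16 at -0.47 and Dhx8 at -0.35. Ddx39b was at -0.55 and Eif4a3, the helicase of the exon junction complex, at -0.23.
For some abundant members the difference was nearer 0 than the median of -0.43. Ddx5 had 311, 274 and 274 FPKM in β-TCP, against 334, 333 and 362 FPKM in hydrogel (log2 fold change -0.26 ± 0.12 SE, adjusted p = 0.156), Sf3b1, the large U2 subunit, was at -0.27 and Snrnp70 at -0.13. Sf3b5 had 77.6, 74.7 and 75.7 FPKM in β-TCP, against 71.2, 77.5 and 70.98 FPKM in hydrogel, with overlap, at 0.05. It and Prpf40b, Srsf9 and Txnl4a, the last pair also chosen after their values were seen, were the 4 members with a log2 fold change above 0, none past an unadjusted p of 0.05.

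**Figure D4:**
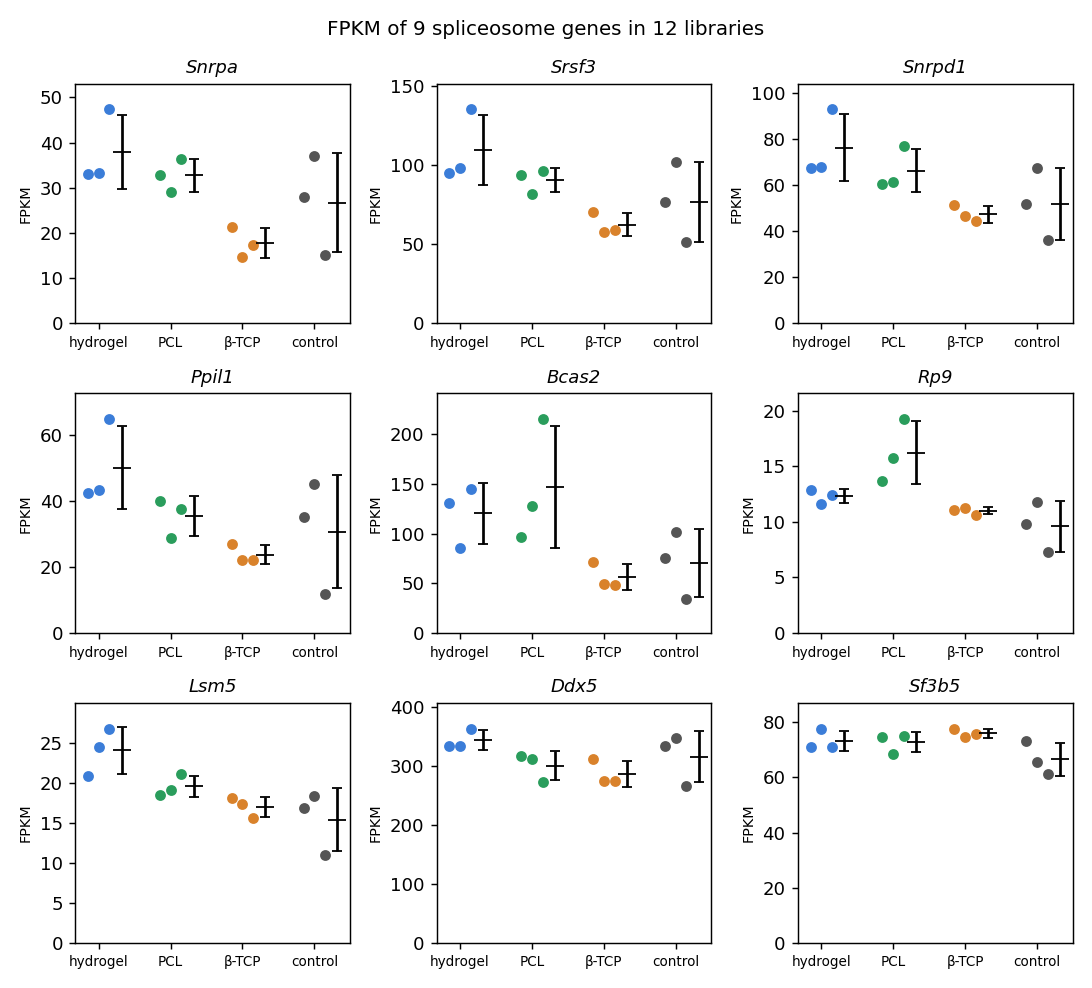
FPKM of 9 spliceosome genes in each library by group (points, replicates 1 to 3 from left to right), with mean and SD beside them (n = 3). Snrpa, Srsf3, Snrpd1, Ppil1 and Bcas2 have no β-TCP library as high as any hydrogel library, and Ddx5 and Sf3b5 vary little.

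PCL against hydrogel sets the 2 polymers side by side. No member passed at an adjusted p by limma (0.103% of all genes), and 5 were lower and 0 higher at an unadjusted p by limma and limma-voom, against 5.34% and 2.89% of all genes. The median log2 fold change was -0.17 (-0.06 over all genes), and 38 members did not overlap and were lower (15.4% of all genes). The 38 took in 8 of the 11 SR proteins, 7 of the 9 U1 and U1-linked proteins and 8 of the 23 U2 and U2-linked proteins. The log2 fold change was above 0 for 12 members (39% of all genes). The median was -0.06 without hydrogel replicate 3, and 25 members were lower at an unadjusted p without control replicate 3 (14.4% of all genes in that fit). Tra2a, an SR-related protein chosen after its values were seen, had 20.5, 19.9 and 16.4 FPKM in PCL, against 23.8, 25.3 and 31.8 FPKM in hydrogel (log2 fold change -0.48 ± 0.15 SE, adjusted p = 0.578). Rp9 was the only member whose PCL libraries all lay above the hydrogel libraries (5.09% of all genes), with 13.6, 15.7 and 19.2 FPKM in PCL, against 12.9, 11.6 and 12.4 FPKM in hydrogel (log2 fold change 0.36 ± 0.16 SE, adjusted p = 0.606).

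β-TCP against PCL rests on the same β-TCP libraries as β-TCP against hydrogel. No member passed at an adjusted p by limma (0.657% of all genes), and 22 were lower and 1 higher at an unadjusted p, against 9.34% and 13.1% of all genes, with 20 and 1 by limma-voom. The groups did not overlap for 80 lower members (21.7% of all genes) and 3 higher (23.2%), Prpf40b, Snrpb2 and Srsf9, all chosen after their values were seen. The median log2 fold change was -0.27 (0.04 over all genes), with 10 members above 0 (54.5% of all genes). In a fit of only the 2 groups 31 members passed at an adjusted p (17.3% of all genes), and without control replicate 3 this was 16 (15.1%). The lower count at an unadjusted p was 7 without PCL replicate 3 (3.21% of all genes in that fit), 7 without β-TCP replicate 2 (4.27%), 5 without β-TCP replicate 3 (4.16%), 7 with that pair averaged (4.14%), 61 without control replicate 3 (17.3%) and 40 without control replicate 2 (11.6%). Bcas2 had 71.6, 49.2 and 48.4 FPKM in β-TCP, against 97.2, 128 and 215 FPKM in PCL. Its groups did not overlap, it was the only member past 2-fold with an unadjusted p under 0.05 (3.34% of all genes, lower), and the log2 fold change was -1.31 ± 0.40 SE, adjusted p = 0.134. Prpf40b had 3.58, 3.09 and 3.40 FPKM in β-TCP, against 2.97, 2.57 and 2.08 FPKM in PCL and was the higher one (log2 fold change 0.31 ± 0.12 SE, adjusted p = 0.175).

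**Figure D5:**
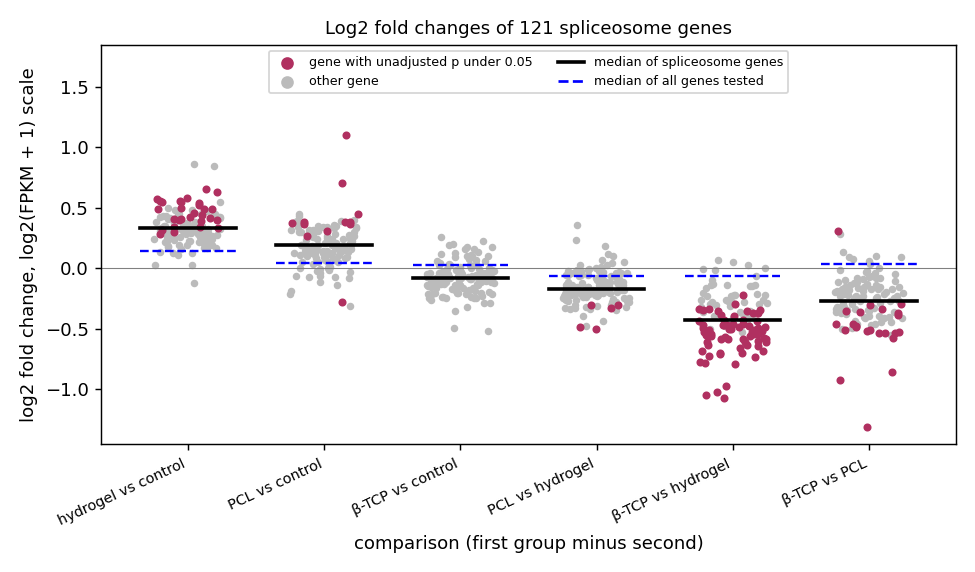
Log2 fold change of each of the 121 spliceosome genes in the 6 comparisons, the first group minus the second, with points in colour at an unadjusted p under 0.05 and lines at the median of these genes (solid) and of all genes tested (dashed). The medians are 0.34, 0.19, -0.08, -0.17, -0.43 and -0.27 from left to right.

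Among the 4 groups, the mean level was highest in hydrogel for 105 of the 121 members and lowest in β-TCP for 88 and in control for 26. For 74 members the order was hydrogel, PCL, control, β-TCP. The share of all genes with these places or this order was not counted. Of the neighbours in that order, PCL and hydrogel overlapped for 82 of the 121 members, PCL and control for 111 and β-TCP and control for 119. Of all genes, 15.4% were lower and 5.09% higher without overlap in PCL against hydrogel. In PCL against control 10.3% were higher and 7.84% lower without overlap, and in β-TCP against control 17.9% and 4.97%. The range over the 12 libraries had a median of 0.99 on the log2 scale, and ran from 0.33 in Sf3b5 to 2.62 in Bcas2. Wbp11l1, a low gene at 0.28 to 3.67 FPKM, had the widest upward departure from its median, with hydrogel replicate 3 and PCL replicate 3 on top, and Ppil1 the widest downward one, in control replicate 3.

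Genes that act on the machine without being in the annotated group were read from 4 lists. Of 12 genes of the SMN complex and methylosome, which load the Sm ring, 11 had a log2 fold change below 0 in β-TCP against hydrogel (55.1% of all genes did), with a median of -0.46, 9 were lower at an unadjusted p under 0.05 (18.2% of all genes) and 0 passed at an adjusted p (6.13% of all genes). Of 9 genes of the minor spliceosome, which removes a rare class of introns, 5 were lower at an unadjusted p and 1 passed at an adjusted p in that comparison: Zrsr2, with 7.16, 5.93 and 6.34 FPKM in β-TCP and 8.88, 9.76 and 11.3 FPKM in hydrogel (log2 fold change -0.55, adjusted p = 0.0225). Of 8 kinases of SR proteins, 5 were lower at an unadjusted p and 1 passed at an adjusted p: Clk1, with 174, 138 and 139.5 FPKM in β-TCP and 216, 205 and 229 FPKM in hydrogel (log2 fold change -0.53, adjusted p = 0.0451). Both were lower in β-TCP than in hydrogel. Zrsr2 had 6.73, 6.27 and 6.23 FPKM in PCL and 8.98, 9.53 and 8.57 FPKM in control, so that its control libraries lay above its β-TCP libraries. Clk1 had 153, 159 and 140.0 FPKM in PCL and 178, 188 and 141 FPKM in control, which overlapped its β-TCP libraries and lay below its hydrogel libraries. The call of Zrsr2 was lost without hydrogel replicate 3 (adjusted p = 0.0974), β-TCP replicate 2 (0.117) or β-TCP replicate 3 (0.108), and that of Clk1 without any library other than control replicate 2, control replicate 3 or β-TCP replicate 1 (adjusted p from 0.0518 to 0.190) and by limma-voom (0.0519), with no filter (0.0557) and with hemoglobin genes left out of the total (0.0506). With β-TCP replicates 2 and 3 averaged both calls were lost, at adjusted p = 0.111 for Zrsr2 and 0.189 for Clk1. With the replicate number as a block these were adjusted p = 0.0586 for Zrsr2 and 0.0797 for Clk1. Of 15 tested tissue splicing regulators, 5 were lower at an unadjusted p and 0 passed at an adjusted p, with a median of -0.39, against the same shares of all genes.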

How the data were processed

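The deposited FPKM were made by the authors from reads trimmed by Trimmomatic and placed on the genome by HISAT2, with Cufflinks for the level of each gene. HTSeq, DESeq, Bowtie and StringTie, and Rnor_6.0 as the build, also stand in the submitters' processing notes, without versions. The paper and the labels name different RNA kits and sequencers, and whether counting used strand is not given in the sources used here. The deposited FPKM of 12 libraries were used as they are, and 3 other value columns, which no sample label fits, were left out. Libraries were grouped by their labels.

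A gene was kept if 3 or more libraries reached 1 FPKM (12633 genes). On the log2(FPKM + 1) scale, limma 3.58.1 (R 4.3.3) fitted a mean for each group over all 12 libraries together, with a mean-dependent prior, two-sided tests and Benjamini-Hochberg adjustment over all genes tested; the pseudocount understates the change of low genes. The 2-fold threshold with an unadjusted p under 0.05 is that of the paper's methods. FPKM of 1 gene are whole multiples of 1 fragment, and whole fragments were recovered for 17942 of 18684 genes above 0 (96.0%, within 0.01) and for all genes tested, for use in limma-voom. Depth limits low members: the lowest count of a member tested in a library was 12 fragments, and the median over members of the lowest count was 723. Steps were tested on simulated data. Promoter windows came from RefSeq on GRCr8 and were read with Python 3.11.15; no coordinates of the files' build were used.

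The alternatives were 2 other pseudocounts, 2 other filters, 2 other scalings, hemoglobin genes left out, only the 2 groups compared, replicate number as a block, no trend, limma-voom and each library left out. Averaging β-TCP replicates 2 and 3 and leaving out libraries of groups not compared were chosen after seeing the data. The members and the gene lists were chosen with earlier results of these data known. Genes were named by rule: members past the thresholds, the 2 most abundant and the one with the smallest p of each role, and the widest range in each direction; all other names were chosen after their values were seen.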

Additional observations from a re-analysis of the deposited data

How the results depend on the processing

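No gene named by rule for a comparison changed direction in it. Genes chosen after their values were seen were not followed through these choices. The median of the members, which has no test, changed sign in β-TCP against control without control replicate 2 and in PCL against control without control replicate 3 (-0.0018, against 0.19). The count of members at an adjusted p under 0.05 in β-TCP against hydrogel was 0 in the fit used, 12 with median-of-ratios scaling (10.6% of all genes), 25 with quantile normalization (12.2%) and 68 in a fit of only the 2 groups compared, which for β-TCP against PCL gave 31. Leaving out 1 library gave 0 to 85 for β-TCP against hydrogel, 0 to 16 for β-TCP against PCL and 0 to 9 for β-TCP against control, the highest each time without control replicate 3. The cause was not tested. Over the same choices the median log2 fold change ran from 0.13 to 0.50 for hydrogel against control, from -0.298 to 0.0922 for β-TCP against control, and it was -0.48 for β-TCP against PCL with hemoglobin genes left out of the total. Scaling moved the median of all genes in hydrogel against control to 0.03 with median-of-ratios scaling and 0.02 with quantile normalization, against 0.14, and the members' median to 0.20 with either. The 29 members higher at an unadjusted p there were 12 with median-of-ratios scaling (3.91% of all genes), 17 with quantile normalization (4.82%), 4 with only the 2 groups (2.29%) and 14 with the replicate block (5.49%). Averaging β-TCP replicates 2 and 3, chosen after seeing the data, left 0 members at an adjusted p in each comparison with β-TCP.

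Same-numbered libraries did not deviate together consistently (correlations of -0.61 to 0.47, both signs), and the numbers were not taken to pair the samples. With the replicate number as a block, 0 members passed in any comparison, and 51 in place of 70 were lower at an unadjusted p in β-TCP against hydrogel and 8 in place of 22 in β-TCP against PCL. Each p rests on 3 libraries a group, and low members on few fragments.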
